A study of Rattus norvegicus with 12 samples.

Results

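The 9 genes described here encode scaffold, anchoring and kinase proteins of the postsynaptic side of excitatory synapses: Akap5, Psd2, Dlg2, Dlg4, Shank1, Shank2, Shank3, Camk2a and Camk2b. They were taken by gene symbol from the 17268 genes of the count matrix, and all 9 were present and were tested in every comparison. The set was put together with the fold changes between these groups known, so the levels, fold changes and calls of the 9 genes are a description and carry no p-value. RNA was sequenced from the cerebral cortex of 12 adult male Sprague Dawley rats, 1 library per rat, with 3 rats in each of 4 groups. Sham rats underwent the carotid surgery but received no clot. Model rats received a blood clot in the middle cerebral artery, an embolic model of ischemic stroke. The rt-PA rats had the same clot and were given recombinant tissue plasminogen activator, the drug that dissolves clots, at 6 h. The rt-PA+Acu rats had the clot and rt-PA at 6 h, and also Xingnaokaiqiao (XNKQ) acupuncture at 2 h at the points GV26 and PC6. The tissue is a piece of whole cortex, so neurons, glia and blood vessels contribute to every value, and the time at which it was taken for sequencing is not given in the sources used here.

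The postsynaptic density is a protein mesh beneath the receptor-bearing membrane of the dendritic spine. PSD-95 (Dlg4) and PSD-93 (Dlg2) sit next to the membrane and hold glutamate receptors through their PDZ domains, and the Shank proteins form a deeper layer that connects this complex to Homer and to actin. Calcium/calmodulin-dependent protein kinase II, built from alpha (Camk2a) and beta (Camk2b) subunits, responds to calcium that enters through NMDA receptors and is central to long-term potentiation. Akap5 (AKAP79/150) anchors protein kinase A, protein kinase C and the phosphatase calcineurin near the receptors. Psd2, despite its symbol, is not a PSD-93 gene: it encodes a pleckstrin and Sec7 domain protein that activates the small GTPase ARF6, which acts in membrane traffic and spine actin.

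Total counts per library lay between 11678450 and 13616935, and 3 counts, the limit that a count of 0 allows, stood for 0.208 to 0.262 CPM. Limits of this kind cover counting error only. CPM here are raw counts scaled by the size of each library after edgeR's TMM normalisation across the 12 libraries. A gene was called a differentially expressed gene (DEG) when its absolute log2 fold change exceeded 1 and its Benjamini-Hochberg adjusted p from edgeR's quasi-likelihood test was under 0.05. The comparison of rt-PA+Acu with rt-PA is called the acupuncture comparison below, and that of rt-PA+Acu with Sham the residual comparison. Model replicate 3 stood apart from the other injured libraries at 11 genes, where it lay inside the Sham range while the other 8 libraries lay outside it by more than 1.5-fold, and 0 of the 9 genes were among them. Model replicates 1 and 2 and each rt-PA library had 0 such genes, and rt-PA+Acu replicates 1, 2 and 3 had 37, 15 and 1. Values without Model replicate 3 are given with the comparisons that use it.

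Because Akap5 and Psd2 had the largest differences between Sham and Model, and because Camk2a and Camk2b parted from each other, the promoters of these 4 genes are shown first. RefSeq on the build GRCr8 gave a promoter for 7 of the 9 genes, all but Shank1 and Shank2, and each window is the 250 bases before the annotated start, 5′ to 3′ on the gene's strand. The reads were counted on another build, mRatBN7.2. Capitals mark GC boxes (GGGCGG), E-boxes (CANNTG) and cores of the cAMP response element (TGACG), each searched on both strands with overlapping matches counted. The windows are chr6:100786919-100787168 (plus strand), chr18:27839377-27839626 (plus strand), chr18:56648930-56649179 (plus strand) and chr14:85147945-85148194 (minus strand).
Akap5: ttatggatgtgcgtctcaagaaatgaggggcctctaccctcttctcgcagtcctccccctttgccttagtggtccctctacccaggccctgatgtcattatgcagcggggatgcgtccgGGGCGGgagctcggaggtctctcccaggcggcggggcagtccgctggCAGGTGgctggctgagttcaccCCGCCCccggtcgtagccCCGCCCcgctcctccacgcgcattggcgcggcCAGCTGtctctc
Psd2: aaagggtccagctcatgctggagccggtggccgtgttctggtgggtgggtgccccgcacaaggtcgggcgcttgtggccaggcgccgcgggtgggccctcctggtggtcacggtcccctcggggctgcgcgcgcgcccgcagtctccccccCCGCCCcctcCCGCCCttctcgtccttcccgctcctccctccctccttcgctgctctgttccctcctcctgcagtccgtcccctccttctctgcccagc
Camk2a: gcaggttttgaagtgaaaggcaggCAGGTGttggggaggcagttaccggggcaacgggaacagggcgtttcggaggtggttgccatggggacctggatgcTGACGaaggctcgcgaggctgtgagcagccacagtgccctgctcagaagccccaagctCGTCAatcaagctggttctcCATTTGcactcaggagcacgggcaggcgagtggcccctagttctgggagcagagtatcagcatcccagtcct
Camk2b: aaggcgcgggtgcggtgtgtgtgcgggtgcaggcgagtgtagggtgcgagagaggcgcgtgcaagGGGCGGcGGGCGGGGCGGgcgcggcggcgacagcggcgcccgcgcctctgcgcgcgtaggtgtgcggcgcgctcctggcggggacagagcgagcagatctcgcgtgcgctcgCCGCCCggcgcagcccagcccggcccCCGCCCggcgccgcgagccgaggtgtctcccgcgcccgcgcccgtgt

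The Akap5 window held 3 GC boxes and 2 E-boxes, and the Psd2 window held 2 GC boxes and 0 E-boxes. Camk2a and Camk2b shared none of the marked motifs: Camk2a had 2 E-boxes and 2 cAMP response element cores, while Camk2b had 5 GC boxes, of which a pair overlapped by 1 base. Camk2b was also the most GC-rich of the 7 windows, with 80.4% G and C and 47 CpG dinucleotides, against 60.4% and 10 in Camk2a. Akap5 had 66.8% and 19 CpG, and Psd2 had 72.8% and 21 CpG. The remaining windows ranged from 42.4% and 1 CpG in Dlg2 to 69.2% and 5 CpG in Dlg4, with Shank3 between them at 56% and 4 CpG. Over all 33469 rat promoters of this length the medians were 51.2% and 5 CpG. A GC box occurred in 3 of the 7 windows and in 30.5% of all promoters, an E-box in 3 of 7 and in 65.5%, and a cAMP response element core in 1 of 7 and in 18.2%. The full cAMP response element TGACGTCA (1.59% of all promoters; it contains the core), the AP-1 element TGANTCA (6.34%), the TATA box TATAAA (12.9%) and the D-box TTATGNAA (3.28%) had 0 matches in the 7 windows. A match is a string of letters and not a shown binding site.

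In the Model cortex all 9 genes were lower than in Sham, with geometric mean levels from 9.85% of the Sham level (Akap5) to 79.2% (Dlg2). The anchoring protein gene Akap5 and the ARF6 exchange factor gene Psd2 were lowest, followed by the kinase subunit gene Camk2a and by Shank2 and Shank3, while Camk2b and Dlg2 differed least. Of the 9 genes, 6 were DEGs, all lower (Akap5, Psd2, Camk2a, Shank2, Shank3 and Dlg4), where 12% of the 12884 genes tested were lower DEGs. All 9 had an adjusted p under 0.05 at any fold (26.6% of all genes, lower), and in all 9 every Model library lay below every Sham library (31.4% of all genes). The median log2 fold change of the 9 genes was -1.37 and that of all genes tested was 0.01. Since the genes were chosen with this contrast known, nothing is read from these shares. In bulk tissue, fewer cells of a type and less RNA per cell cannot be told apart.

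Akap5 was measured at 192, 204 and 187 CPM in the 3 Sham libraries and at 13.9, 17.8 and 28.2 CPM in the 3 Model libraries. The Sham libraries lay close together, and the highest Model library was the one that stood apart, replicate 3. The fitted log2 fold change was -3.28 (SE 0.23), and -3.61 without Model replicate 3. Psd2 was at 150, 162 and 129 CPM in Sham and at 24.4, 31.3 and 28.2 CPM in Model, a log2 fold change of -2.39 (SE 0.13) that left a wide empty interval between the groups.

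The kinase subunits differed from each other. Camk2a had 2837, 2650 and 2516 CPM in Sham and 586, 472 and 562 CPM in Model, a log2 fold change of -2.30 (SE 0.11). Camk2b had 842, 905 and 1006 CPM in Sham and 663, 658 and 773 CPM in Model, a log2 fold change of -0.39 (SE 0.10). The groups did not overlap for either subunit, but the lowest Sham library of Camk2b was only a little above its highest Model library, whereas each Sham library of Camk2a exceeded each Model library by a wide margin.

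Among the scaffolds, the 3 Shank genes were ordered Shank2, Shank3, Shank1 by the size of the difference. Shank2, at 450, 406 and 354 CPM in Sham and 103, 111 and 138 CPM in Model, had a log2 fold change of -1.77 (SE 0.14). Shank3, at 429, 577 and 489 CPM in Sham and 194, 169 and 211 CPM in Model, had one of -1.37 (SE 0.13). Shank1, at 1138, 975 and 888 CPM in Sham and 547, 448 and 529 CPM in Model, had one of -0.97 (SE 0.12) and so lay just short of the DEG threshold. All 3 genes had their groups clearly apart, and Sham replicate 1 was the highest Sham library for Shank1 and Shank2 but the lowest for Shank3.

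The 2 membrane-associated guanylate kinases also parted. Dlg4 (PSD-95) was at 1099, 1261 and 1093 CPM in Sham and at 638, 514 and 510 CPM in Model, a log2 fold change of -1.05 (SE 0.12). Dlg2 (PSD-93) was at 283, 282 and 256 CPM in Sham and at 236, 229 and 188 CPM in Model, a log2 fold change of -0.32 (SE 0.11). Dlg4 was just past the DEG threshold and went to -0.99 without Model replicate 3, which left 5 of the 9 genes as DEGs. The plot of CPM by library shows each of these values.

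**Figure D1:**
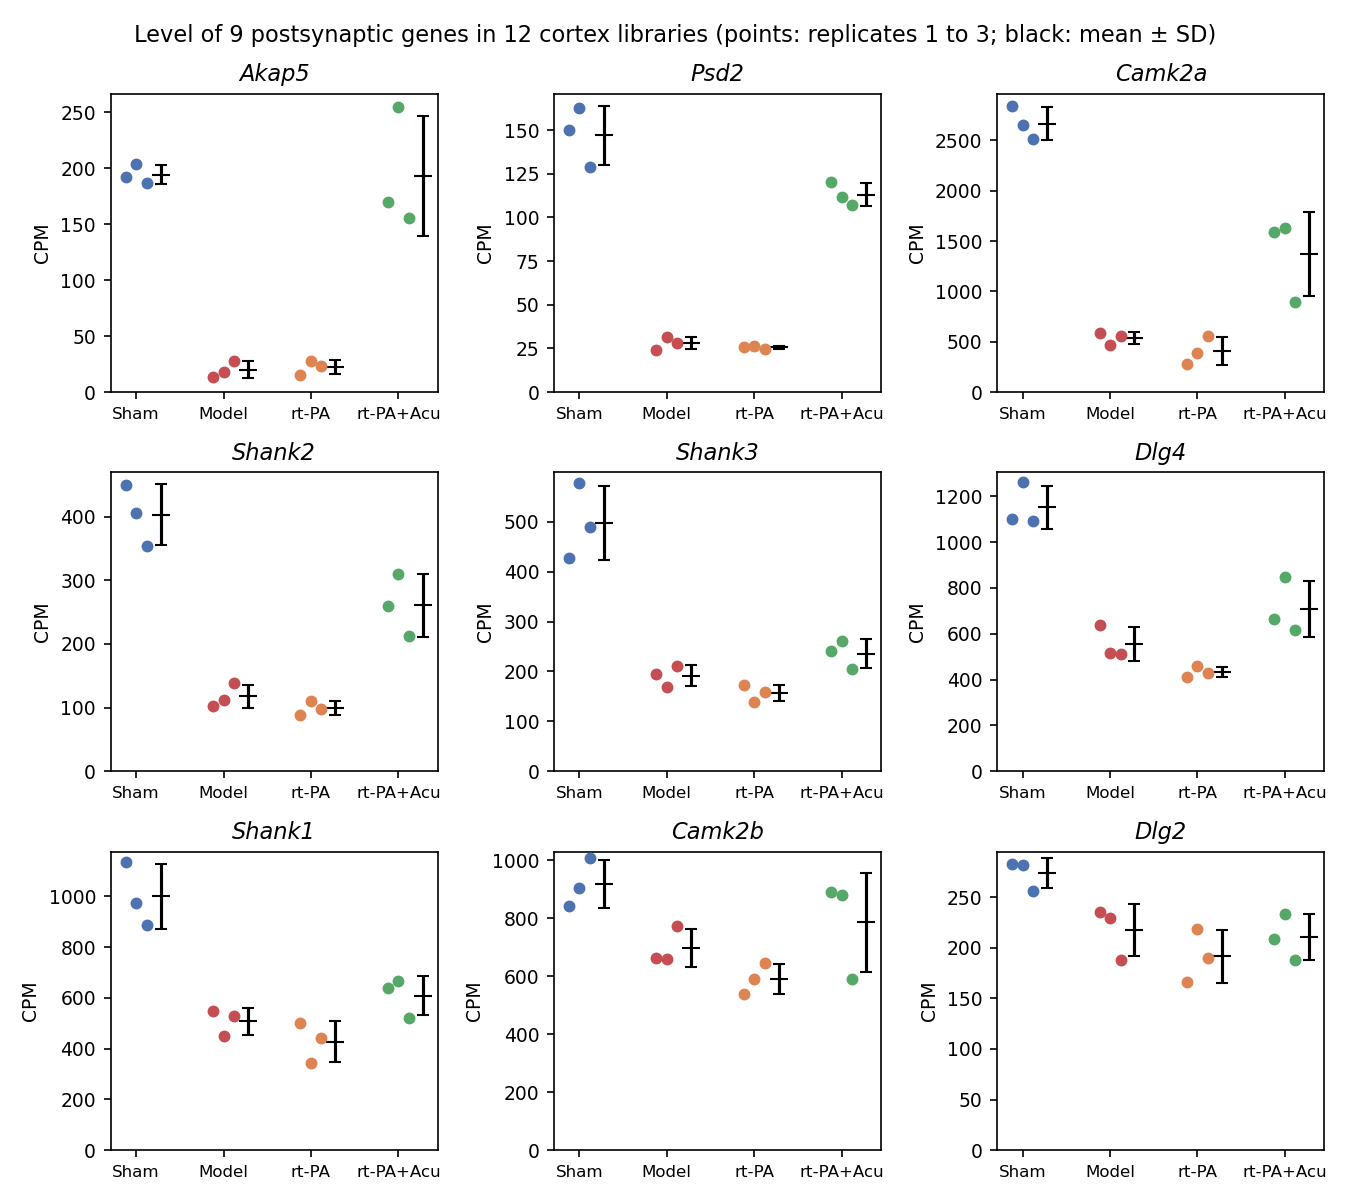
Level of the 9 genes in CPM (vertical axis, linear, starting at 0, scaled for each gene) in the 3 libraries of each group; coloured points are replicates 1 to 3 from left to right, and the black mark is the mean with an error bar of 1 SD (n = 3). Model and rt-PA libraries lie below all Sham libraries in every panel, and for Akap5 the rt-PA+Acu libraries (156 to 255 CPM) span the Sham libraries (187 to 204 CPM).

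In the rt-PA group the same 9 genes were again all lower than in Sham, and Shank1 joined the DEGs. The DEGs were 7 of 9, all lower (11.6% of the 13023 genes tested were lower DEGs), all 9 had an adjusted p under 0.05 at any fold (27.3%, lower), and for all 9 no rt-PA library reached the lowest Sham library (30.8%). Their median log2 fold change was -1.69, against 0.003 over all genes tested. This comparison shares the Sham libraries with the one above, so its values are not separate evidence, and nothing is read from these shares.

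Akap5 had 15.7, 28.2 and 23.4 CPM in the rt-PA libraries (log2 fold change against Sham -3.13, SE 0.20) and Psd2 had 26.0, 26.2 and 24.6 CPM (-2.54, SE 0.11). Camk2a had 276, 387 and 558 CPM (-2.73, SE 0.24), with replicate 1 well below replicate 3, and Camk2b had 539, 589 and 644 CPM (-0.65, SE 0.11). Relative to its level, Camk2a was the most spread of the 9 genes in this group, followed by Akap5. Shank2 was at 88.0, 111 and 98.4 CPM (-2.04, SE 0.13), Shank3 at 173, 140 and 159 CPM (-1.69, SE 0.13) and Shank1 at 500, 343 and 441 CPM (-1.24, SE 0.15). Dlg4 was at 413, 457 and 429 CPM (-1.43, SE 0.10) and Dlg2 at 167, 219 and 190 CPM (-0.54, SE 0.11). The order of the 9 genes by the size of the difference was the same as in Model vs Sham except that Camk2a and Psd2 changed places.

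What rt-PA at 6 h added to the clot alone is addressed by rt-PA vs Model. In edgeR's quasi-likelihood test 0 of the 9 genes were DEGs there, as were 0% of the 12941 genes tested in either direction. The smallest adjusted p over all genes in that test was 0.085. DESeq2 also called 0 of the 9, 2 of the 9 (Dlg4 and Shank3) had an unadjusted p under 0.05 in edgeR's quasi-likelihood test, and over all genes 1284 did. The paper, which used DESeq2 with the same thresholds, reports DEGs among all genes for this pair of groups. Of the log2 fold changes 8 were below 0, from -0.41 (Camk2a, SE 0.23) to -0.12 (Psd2, SE 0.13), and Akap5 was at 0.17 (SE 0.30). Camk2b and Dlg4 were the 2 genes whose rt-PA libraries all lay below all Model libraries, which 8.06% of all genes tested did. Without Model replicate 3 the 9 values lay between -0.42 (Dlg4) and 0.50 (Akap5). The Model libraries also enter Model vs Sham, so these differences are not independent of the values given there.

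With acupuncture before rt-PA, Akap5, Psd2, Camk2a and Shank2 were higher than with rt-PA alone, while Dlg2 and Camk2b showed the smallest differences. All 9 log2 fold changes were above 0, with a median of 0.71 against -0.003 over all genes tested. Of the 9 genes, 4 were DEGs, all higher (7.17% of the 12999 genes tested were higher DEGs), 6 had an adjusted p under 0.05 at any fold (17%, higher; Dlg4 and Shank3 were the further 2), and 7 had every rt-PA+Acu library above every rt-PA library (24.4%; Camk2b and Dlg2 overlapped). The rt-PA libraries are those that were compared with Sham and Model above. The 9 genes were chosen with the fold changes between these groups known, so nothing is read from these shares.

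Akap5 stood at 170, 255 and 156 CPM in the rt-PA+Acu libraries, a log2 fold change of 3.11 (SE 0.27) over rt-PA, and replicate 2 was above every Sham library. Psd2 stood at 120, 112 and 107 CPM, a log2 fold change of 2.14 (SE 0.10), with the 3 libraries close together and below every Sham library. Camk2a stood at 1591, 1630 and 894 CPM, a log2 fold change of 1.75 (SE 0.31), and at 1.99 without replicate 3, the lowest library. Replicate 3 was the lowest rt-PA+Acu library for all 9 genes.

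Shank2, at 260, 310 and 212 CPM, had a log2 fold change of 1.39 (SE 0.16) over rt-PA, the only Shank gene that was a DEG here. Shank3 was at 242, 261 and 204 CPM (0.59, SE 0.13) and Shank1 at 640, 667 and 521 CPM (0.51, SE 0.17). Dlg4 was at 664, 846 and 617 CPM (0.71, SE 0.14). Camk2b, at 888, 880 and 589 CPM (0.41, SE 0.18), had 2 libraries within the Sham range and replicate 3 within the rt-PA range. Dlg2, at 209, 234 and 188 CPM (0.14, SE 0.14), had overlapping groups.

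**Figure D2:**
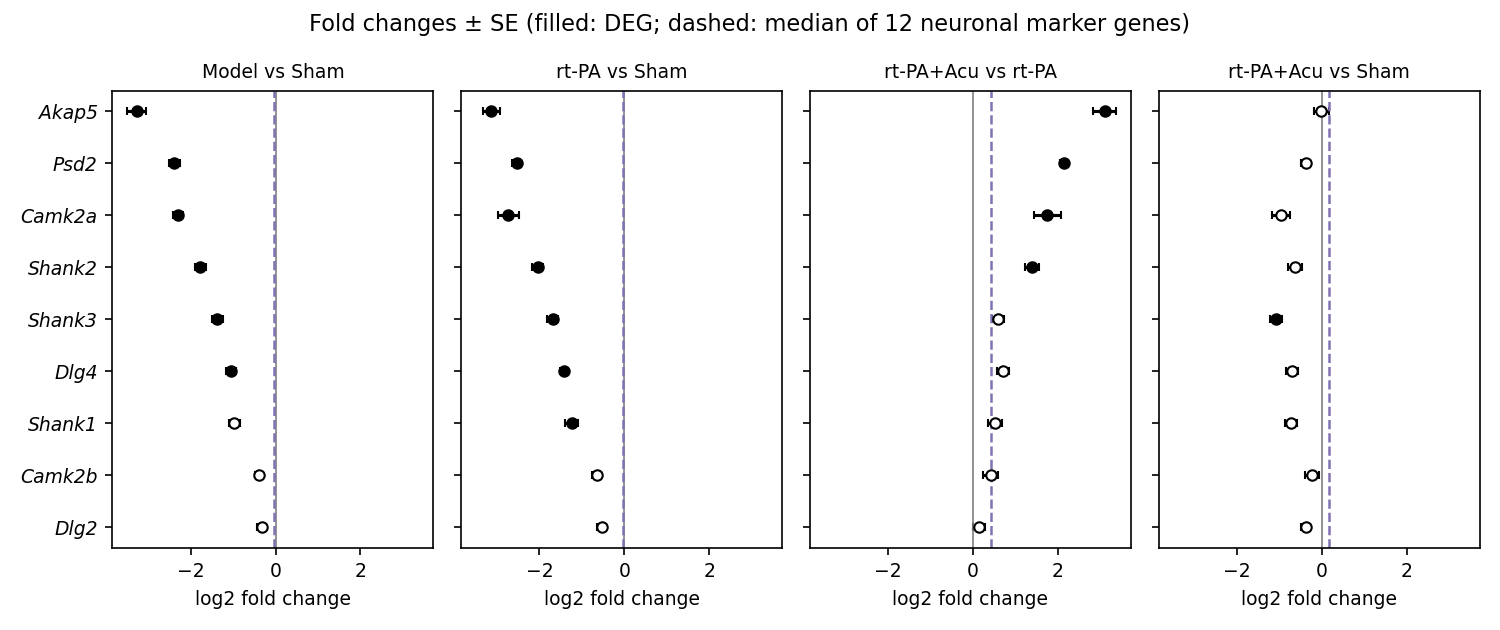
Log2 fold change of the 9 genes (horizontal axis) in 4 of the 5 comparisons, with error bars of 1 SE from edgeR's quasi-likelihood fit over 3 libraries a group; filled points are DEGs and the dashed line is the median of 12 neuronal marker genes. Akap5 runs from -3.28 in Model vs Sham to 3.11 in the acupuncture comparison and -0.01 in the residual comparison, while Shank3 is the filled point at -1.08 in the last panel.

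Against Sham, the rt-PA+Acu group differed in how far each gene lay below it. Akap5 was at 97.3% of the Sham level (geometric mean; log2 fold change -0.01, SE 0.18) and its groups overlapped, whereas Shank3 was at 47.4% (-1.08, SE 0.14) and was the only DEG among the 9, lower, where 1.14% of the 12775 genes tested were lower DEGs. An adjusted p under 0.05 at any fold was reached by 4 of the 9 (3.4% of all genes, lower), namely Shank3, Dlg4 (-0.70, SE 0.15), Shank1 (-0.72, SE 0.14) and Camk2a (-0.96, SE 0.22). In 7 of the 9 genes every rt-PA+Acu library lay below every Sham library (15.7%), the exceptions being Akap5 and Camk2b (-0.23, SE 0.17). Psd2 was at 77.1% (-0.38, SE 0.11), Shank2 at 64.1% (-0.63, SE 0.16) and Dlg2 at 76.6% (-0.38, SE 0.11) of Sham. All 9 values were below 0, with a median of -0.63 against 0.02 over all genes tested. As the choice of the 9 genes was made with these fold changes known, nothing is read from the shares given here. Shank3 was at -0.97 without Sham replicate 2 and at -0.996 without rt-PA+Acu replicate 3 and was then no DEG, so 0 of the 9 were.

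The distance between Sham and rt-PA on the log2 CPM scale that remained in the rt-PA+Acu mean was 1.25% for Akap5, 14.9% for Psd2, 31.6% for Shank2, 36.4% for Camk2a and 38.6% for Camk2b. It was 50.4% for Dlg4, 58.0% for Shank1, 64.9% for Shank3 and 73.6% for Dlg2. Across single rt-PA+Acu libraries the same share ranged from -12.4% to 10.02% for Akap5 and from 11.3% to 17.9% for Psd2. For Camk2b it was 6.75% and 8.90% in replicates 1 and 2 but 100.2% in replicate 3, so its place among the 9 genes depended on that library, and it lay below Psd2 in the former 2. Camk2a ranged from 25.6% to 56.9% and Dlg2 from 43.3% to 103.3%. Dlg4, Shank1, Shank2 and Shank3 had ranges of 31.3% to 63.7%, 46.7% to 75.7%, 18.4% to 45.5% and 55.4% to 76.9%.

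Ratios of raw counts within a library need no scaling between libraries. They are compared between groups and not as levels of the 2 genes. The genes were chosen with their fold changes known, so the ratios restate those differences and are not separate evidence. The ratio of Camk2a to Camk2b, the 2 main brain subunits of the kinase, was 3.37, 2.93 and 2.50 in the Sham libraries and 1.79, 1.85 and 1.52 with acupuncture, against 0.885, 0.718 and 0.727 in Model and 0.513, 0.656 and 0.866 in rt-PA. The rt-PA+Acu libraries lay between the Sham and the injured libraries with no overlap on either side. The ratio of Akap5 to Dlg4 was 0.169 ± 0.007 (SD, n = 3) in Sham. It was 0.037 ± 0.017 in Model and 0.051 ± 0.012 with rt-PA alone, but 0.270 ± 0.027 after acupuncture, a group whose 3 libraries (0.253 to 0.301) were all above the 3 Sham libraries (0.161 to 0.174).

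The ratio of Dlg4 to Dlg2 was 4.204 ± 0.30 in Sham and 3.36 ± 0.23 in rt-PA+Acu, against 2.55 ± 0.27 in Model and 2.28 ± 0.19 with rt-PA alone, again with rt-PA+Acu between the other groups. Shank2 to Shank1 was 0.403 ± 0.012 in Sham, 0.233 ± 0.039 in Model and 0.241 ± 0.075 in rt-PA, and at 0.426 ± 0.033 in rt-PA+Acu it overlapped the Sham range. Shank3 to Shank1 did not follow this pattern. It was 0.377, 0.592 and 0.551 in the Sham libraries and 0.377 ± 0.022 in Model, 0.371 ± 0.032 with rt-PA alone and 0.387 ± 0.008 after acupuncture, so Sham replicate 1 had the ratio of the injured libraries and the other 2 Sham libraries lay above them.

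**Figure D3:**
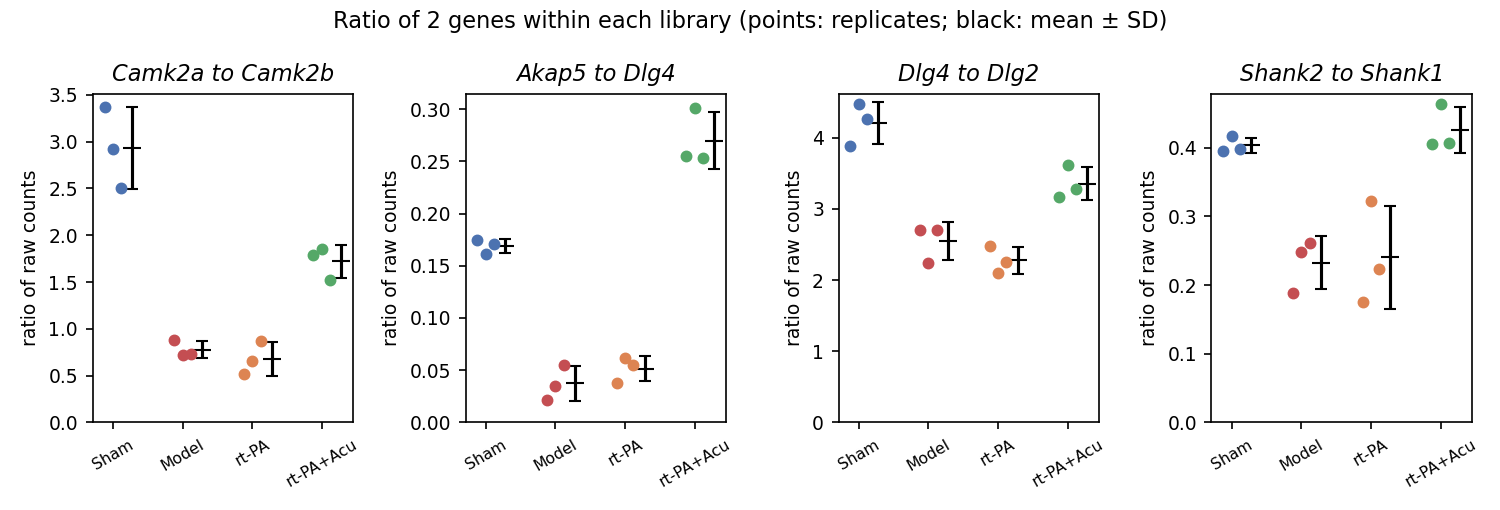
Ratio of the raw counts of 2 genes within each library (vertical axis, no unit, starting at 0) for Camk2a to Camk2b, Akap5 to Dlg4, Dlg4 to Dlg2 and Shank2 to Shank1; points are the 3 libraries of a group and the black mark is the mean with an error bar of 1 SD. In the Camk2a to Camk2b panel the rt-PA+Acu libraries (1.52 to 1.85) lie between Sham (2.50 to 3.37) and the injured groups (0.513 to 0.885).

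Sham replicate 1 also had the lowest summed level of 7 striatal neuron markers, at 279 CPM against 994 and 718 CPM in the other 2 Sham libraries. The striatum lies beneath the cortex, and its neurons express Shank3 and Dlgap3, the gene of a SAPAP protein that joins PSD-95 to Shank. Dlgap3 was lowest in the same Sham library, at 404 CPM against 547 and 457 CPM. The striatal sum was 159 to 249 CPM in Model, 109 to 179 CPM in rt-PA and 172 to 296 CPM in rt-PA+Acu, with 0 of the 7 markers at 0 in any group. Of the 7 markers, 6 were lower DEGs in Model vs Sham (median log2 fold change -2.28), 5 in rt-PA vs Sham (-2.38) and 5 in the residual comparison (-1.61). The part of these markers in the Shank3 values was not tested. With Sham replicate 1, 2 or 3 left out, Shank3 was at -1.18, -0.97 (no DEG) and -1.10 in the residual comparison. In Model vs Sham it was at -1.48, -1.26 and -1.39. Sham replicates 1 and 2 were also the lowest and the highest Sham libraries for Shank3 itself.

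General neuronal markers went in both directions, with a median near 0. All 12 were detected in each group, and their summed level was 7994 to 8952 CPM in Sham, 7178 to 7369 CPM in Model, 5959 to 7131 CPM in rt-PA and 6814 to 9753 CPM in rt-PA+Acu. The median log2 fold change over the 12 markers was -0.04 in Model vs Sham. There 4 were lower at an adjusted p under 0.05 (edgeR's quasi-likelihood test). Of these, 2 were DEGs (Rbfox3 at -1.04 and Map2 at -1.02). The same limit was met by 3 that were higher, 0 of them DEGs (Gad1 at 0.87, Gad2 at 0.90 and Tubb3 at 0.75). For rt-PA against Sham the median was -0.03, with 4 lower and 3 higher at that limit, and 3 were lower DEGs. In Model vs Sham the fold changes of Akap5, Psd2, Camk2a, Shank2, Shank3 and Dlg4 were lower than those of all 12 markers. Camk2b and Dlg2 lay within the range of the markers, with 4 of the 12 below each. In the acupuncture comparison the neuronal median was 0.43, and Akap5, Psd2, Camk2a and Shank2 were above all 12 markers while Camk2b was above 6 and Dlg2 above 5. The 9 genes were chosen with these fold changes known, so nothing is read from their places among the markers. The neuronal sum in rt-PA+Acu replicate 3 was the lowest of its group at 6814 CPM, against 9648 and 9753 CPM. This is also the rt-PA+Acu library in which the 9 genes were lowest, and a link between the 2 was not tested.

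Markers of other cells differed between the groups as well, and their part in the values above was not tested. Of 6 monocyte and macrophage markers, the summed level was 49.8 to 62.1 CPM in Sham (Ms4a7 at 0), 179 to 255 CPM in Model, 243 to 448 CPM in rt-PA and 25.5 to 55.4 CPM in rt-PA+Acu, and 5 of the 5 tested were lower DEGs in the acupuncture comparison. Neutrophil markers summed to 14.8 to 81.5 CPM in rt-PA and to at most 16.9 CPM elsewhere, with Mpo at 0 in every group, and 4 of 5 were lower DEGs in that comparison. The 4 endothelial markers in the table summed to 187 to 344 CPM in Model and 231 to 344 CPM in rt-PA against 109 to 154 CPM in Sham and 72.0 to 81.9 CPM in rt-PA+Acu. Oligodendrocyte markers were uneven between replicates of the clot groups, at 11966 to 17905 CPM in Sham, 1672 to 8503 CPM in Model, 2695 to 11447 CPM in rt-PA and 3212 to 21103 CPM in rt-PA+Acu. In Model vs Sham, 5 of 7 astrocyte markers were lower DEGs and Gfap a higher one (3.10), and 3 of 6 homeostatic microglia markers were lower DEGs. Choroid plexus and ependyma markers summed to at most 17.1 CPM and markers of meninges and fibroblasts to at most 257 CPM in any library.

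The wider postsynaptic complement was followed in 94 further genes chosen by function, none of them among the 9. In Model vs Sham 23 of the 94 were lower DEGs and 6 higher (12% and 9.43% of all genes tested), with a median log2 fold change of -0.41, and 30 were DEGs without Model replicate 3. The numbers were 22 lower and 6 higher in rt-PA vs Sham (11.6% and 11%), with a median of -0.51. In the acupuncture comparison 17 were higher and 5 lower (7.17% and 8.16%), with a median of 0.32, and in the residual comparison 1 was higher and 4 lower (0.916% and 1.14%), with a median of -0.07. In rt-PA vs Model 0 of the 94 were DEGs with edgeR's quasi-likelihood test and 0 with DESeq2, and 19 had an unadjusted p under 0.05 in the former. The lists were drawn up with earlier results of these data known, and no test of a whole list was made.

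Glutamate receptors and their auxiliary subunits, the cargo of the scaffolds, were the function list with the lowest median (-1.17 in Model vs Sham). Of its 11 genes, 6 were lower DEGs there (12% of all genes tested). The metabotropic receptor gene Grm5 had a log2 fold change of -2.30 (SE 0.10, adjusted p = 4.3e-06) in edgeR's quasi-likelihood test. Grm5 rose by 2.26 in the acupuncture comparison (adjusted p = 0.0014) and was no DEG in the residual comparison (0.05, SE 0.17). In all, 6 of the 11 were higher DEGs in the acupuncture comparison (7.17% of all genes tested), with a median of 1.26.

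Among 28 kinase, phosphatase and regulator genes of calcium and cAMP signalling, 6 were higher DEGs in the acupuncture comparison (7.17% of all genes tested). In Model vs Sham 9 were lower DEGs (12%). Camkk2, which phosphorylates and activates other calcium/calmodulin-dependent kinases, had the largest difference, -2.80 (SE 0.22, adjusted p = 4.0e-05 in edgeR's quasi-likelihood test), followed by Camkv, a kinase-like synaptic protein, at -2.02 (adjusted p = 9.0e-06). Of the other subunits of the kinase that Camk2a and Camk2b belong to, Camk2g fell by 1.73 on the log2 scale in Model vs Sham (adjusted p = 5.2e-05) and rose by 1.34 in the acupuncture comparison (adjusted p = 0.0051). Camk2d was at 0.40 (SE 0.23, adjusted p = 0.17) and its groups overlapped in all 5 comparisons. Camk2n1, an inhibitor of the kinase, fell by 1.59 in Model vs Sham (adjusted p = 6.0e-04) and rose by 1.04 in the acupuncture comparison (adjusted p = 0.0068). It was still a lower DEG in the residual comparison at -1.17 (adjusted p = 0.0088). Camk1g was also a lower DEG there, at -1.14, but with another pattern. Its mean level was 37.1 CPM in Sham, 34.0 CPM in Model, 21.3 CPM in rt-PA and 16.8 CPM in rt-PA+Acu.

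The genes of 9 other A-kinase anchoring proteins had a median of 0.19 in Model vs Sham. Their lowest value was -0.47, against -3.28 for Akap5, which was chosen with its fold change known. Of the 9 other genes 0 were lower DEGs and 1 was higher (12% and 9.43% of all genes tested), and nothing is read from these counts. An unadjusted p under 0.05 was reached by 4 of them, and by 7714 of the 12884 genes tested (edgeR's quasi-likelihood test). The higher DEG was Akap12 (gravin), a scaffold for protein kinases A and C, at 2.58 (SE 0.15, adjusted p = 1.5e-05 in the same test). Akap12 had 38.5 to 54.6 CPM in Sham, 243 to 317 CPM in Model, 344 to 391 CPM in rt-PA and 64.9 to 95.8 CPM in rt-PA+Acu, and fell by 2.29 in the acupuncture comparison (adjusted p = 0.0010). Its Model and rt-PA libraries were thus above every Sham library, where those of Akap5 were below.

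Of 11 genes that comprised ARF6 itself and other ARF exchange factors 3 were lower DEGs in Model vs Sham (12% of all genes tested). Their median was -0.20. Arf6, the GTPase that Psd2 activates, was at 0.70 (adjusted p = 3.9e-04) and was no DEG. The closest relative of Psd2 that was a DEG was Psd, at -1.58 (SE 0.16, adjusted p = 1.2e-04 in edgeR's quasi-likelihood test), and Iqsec2, an exchange factor bound to PSD-95, was at -2.18 (adjusted p = 2.2e-05). Psd3 was at -0.46 (adjusted p = 0.011) and was no DEG. Psd4 went the other way, at 0.82 (adjusted p = 0.052) in Model vs Sham and 1.57 (adjusted p = 0.0090) in rt-PA vs Sham. In the acupuncture comparison, Psd rose by 1.05, Iqsec2 rose by 1.74 and Psd4 fell by 1.55 (adjusted p = 0.0068, 0.0010 and 0.017).

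Scaffold genes outside the 9 were mixed, with 3 of 18 lower and 2 higher DEGs in Model vs Sham and a median of -0.08. The shares over all genes tested were 12% and 9.43%, and nothing is read from these counts. Dlgap3 was at -1.80 (SE 0.15, adjusted p = 5.8e-05 in edgeR's quasi-likelihood test) and was still a lower DEG in the residual comparison at -1.21 (adjusted p = 0.0088), as Shank3 was. Begain was the other of the 18 scaffold genes that was a lower DEG in that comparison, at -1.09. Dlg1 (SAP97), the nearest measured relative of Dlg2 and Dlg4, was at -0.75 (adjusted p = 2.5e-04) and was no DEG. Homer1, which binds Shank proteins, was at -0.06 (adjusted p = 0.74) in Model vs Sham, where its groups overlapped, at -0.68 (adjusted p = 0.0011) in rt-PA vs Sham and at -0.51 (adjusted p = 0.049) in the residual comparison, and was a DEG in none of these. Grip1, a PDZ scaffold of AMPA receptors, rose by 2.21 in Model vs Sham (adjusted p = 5.9e-05) and fell by 1.38 in the acupuncture comparison (adjusted p = 0.0040).

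Among 10 postsynaptic adhesion genes 2 were lower and 2 higher DEGs in Model vs Sham (12% and 9.43% of all genes tested). Their median was -0.55. The lower ones were Slitrk2 at -1.71 and Lrrtm3 at -1.59 (adjusted p = 3.9e-05 and 5.5e-05 in edgeR's quasi-likelihood test), and both rose in the acupuncture comparison (1.23 and 1.03). Inhibitory synapses have other scaffolds. Of 7 of their genes 0 were lower DEGs in Model vs Sham (12% of all genes tested), with a median of -0.41, and nothing is read from this count. At an adjusted p under 0.05 and any fold, 4 of the 7 were lower (26.6% of all genes) and 2 were higher. An unadjusted p under 0.05 was reached by 6 of the 7, and by 7714 of the 12884 genes tested (edgeR's quasi-likelihood test). Gphn (gephyrin), the scaffold of GABA and glycine receptors, was higher at 1.23 (adjusted p = 0.0055). Gphn had 41.8 to 43.3 CPM in Sham, 120, 122 and 54.5 CPM in Model, 92.2 to 110 CPM in rt-PA and 84.3 to 94.1 CPM in rt-PA+Acu, and it was the only one of the 94 genes that was a higher DEG in the residual comparison (1.05, adjusted p = 0.0019). Model replicate 3 had the lowest Gphn level of the 9 injured libraries.

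**Figure D4:**
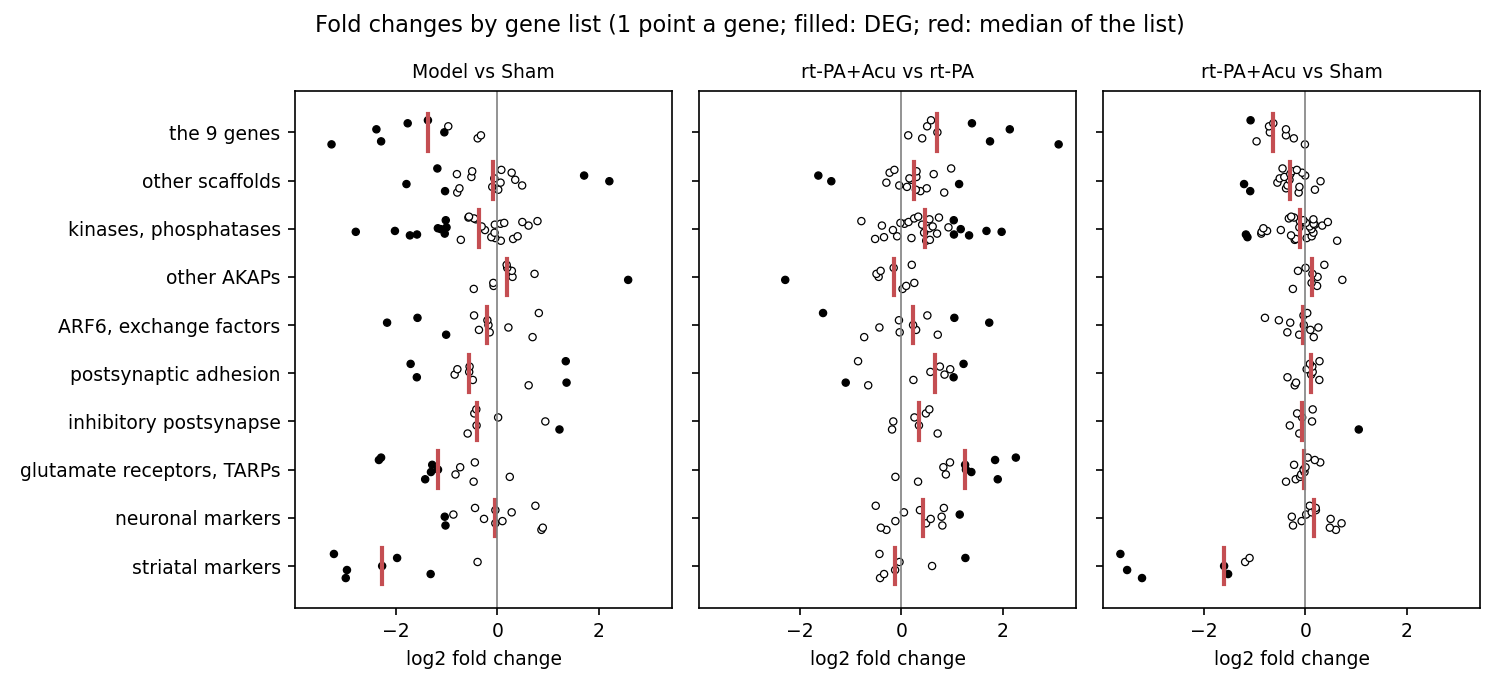
Log2 fold change (horizontal axis) of the 9 genes, of 7 function lists and of neuronal and striatal markers in Model vs Sham and in the acupuncture and residual comparisons; each point is a gene, filled points are DEGs and the red bar is the list median. The 9 genes have medians of -1.37, 0.71 and -0.63, and glutamate receptors and their partners have -1.17, 1.26 and -0.04.

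Patterns over the 12 libraries were compared as log2 CPM centred on each gene's Sham mean, with the mean absolute difference as the measure and 9742 genes of at least 10 CPM searched. Nearest to Akap5 were Abcd2, a peroxisomal transporter of very long chain fatty acids (0.27), and Dbp, a clock-controlled transcription factor (0.27). Psd2 was nearest to Cracdl (0.16) and Plcd4 (0.18), and Camk2a to Cplx2, a complexin of the release machinery (0.22), and Camkv (0.23). Shank3 was nearest to Hapln3 (0.07) and Neurl1 (0.12), Shank2 to Negr1 (0.12) and Sec14l2 (0.13), and Shank1 to Fam131a and Kirrel3 (both 0.13). Dlg4 was nearest to Asic2 and Fgf13 (both 0.11), Dlg2 to Otud7a (0.09) and Bcl2l2 (0.10), and Camk2b to Tmem250 and Phlpp1 (both 0.06). Without Model replicate 3, other genes took the places of Plcd4, Sec14l2, Fam131a, Kirrel3, Fgf13 and Otud7a, and the rest of these neighbours remained. A smaller value is reached more easily by a gene that varies less, so the values are not comparable between the 9 genes. Camk2a was closer to Psd2 (0.37) than to its partner subunit Camk2b (1.24).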

How the data were processed

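Cortical RNA of 12 rats in 4 groups (3 libraries each) was analysed, with groups and replicate numbers taken from the deposited labels. The authors aligned paired-end reads to mRatBN7.2 with STAR and tallied uniquely mapped pairs on the Ensembl annotation with Salmon, per the paper's methods. The submitters' processing notes name STAR 2.7.10a, Salmon 1.9.0 and featureCounts 2.0.1, without the role of the last. Deposited were whole-number raw counts per gene symbol, neither normalized nor pooled. Of 17268 genes, 1373 had no count at all, and 0 columns were left unused. Library totals lay between 11678450 and 13616935 and TMM factors between 0.9476 and 1.077. The sources used here state no use of molecular identifiers, so counting limits cover counting error only. Reads of near-identical genes, or of genes that overlap on the other strand, cannot be told apart in these counts.

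The software was R 4.3.3 (edgeR 4.0.16, limma 3.58.1, DESeq2 1.42.0) and Python 3.11.15 (pandas 2.3.3, matplotlib 3.10.9). For every comparison the model took only the 6 libraries involved and the genes kept by filterByExpr, with TMM normalization and a two-sided quasi-likelihood test in edgeR, adjusted by Benjamini-Hochberg over the genes tested. A DEG needed an absolute log2 fold change above 1 and an adjusted p below 0.05. The SE was the absolute log2 fold change divided by the square root of the F statistic. The edgeR fit was first tested on simulated data in which the changed genes were known, for Model vs Sham and the acupuncture comparison only. The 9 genes, the lists (by function and by cell type) and the naming rule were chosen with earlier results of these data known. Named were the 9 genes, fixed relatives and partners (Dlg3 was not analysed here), the 2 DEGs of each function list with the largest change in Model vs Sham among those with groups that did not overlap and a mean of at least 1 CPM, and the 2 genes nearest in pattern to each of the 9, and some genes that this rule names are not reported here. Rbfox3, Map2, Gad1, Gad2, Tubb3, Gfap, Arf6, Begain and Camk1g were named after their values were seen. Promoters were those of RefSeq on GRCr8, cut to 250 bases. Alternatives replaced the tool (DESeq2), the scaling (RLE size factors, library size alone), the filter (1 count in any library, 10 counts in all), the libraries fitted (all 12 together, each left out in turn), the thresholds (no fold threshold, unadjusted p) or the design (replicate number as a block). P-values set the difference between groups against the spread between 3 rats a group, which edgeR estimates partly from other genes.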

Additional observations from a re-analysis of the deposited data

How the results depend on the processing

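Of 585 values of the 9 genes under the alternatives to the test, scaling, filter, samples and block, and with each library left out, 577 kept their side of the DEG threshold, 0 DEGs changed direction, 6 lost the DEG call and 2 gained it. Akap5, no DEG in rt-PA vs Model or in the residual comparison, changed sign in both, with ranges of -0.04 to 0.50 and -0.26 to 0.12. Dlg4 in Model vs Sham lost the call at -0.98 with library size alone, at -0.99 without Sham replicate 2, without Model replicate 2 and without Model replicate 3, and Shank1 gained it at -1.06 without Sham replicate 3 and -1.03 without Model replicate 1. With each library left out in turn, the DEGs among the 9 genes numbered 5 to 7 for Model vs Sham, 7 for rt-PA vs Sham, 0 in rt-PA vs Model, 4 in the acupuncture comparison and 0 to 1 in the residual one (0 without Sham replicate 2, where Shank3 was at -0.97, and 0 without rt-PA+Acu replicate 3, where it was at -0.996). Among the 94 function-list genes they numbered 25 to 30, 28 to 32, 0, 18 to 26 and 4 to 6. With no fold threshold, 4 of the 9 genes passed in the residual comparison, and of the 94 genes 61 and 70 did so when Model and rt-PA were set against Sham, 47 in the acupuncture comparison and 11 in the residual one. The replicate numbers did not pair the libraries: deviations from the group means correlated across genes between -0.121 and 0.146 for same-numbered libraries, and the labels give the numbers no meaning. With the replicate block the DEGs numbered 6, 7, 0, 4 and 1 of the 9 genes and 28, 30, 0, 22 and 5 of the 94, in the order of comparisons above. Of the 18 genes nearest in pattern, 12 remained without Model replicate 3.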
